A study of Mus musculus with 12 samples.

Results

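The apolipoprotein L genes were examined as 6 rows of a table of 23988 genes from mouse small intestine: Apol7a, Apol7c, Apol9a, Apol9b, Apol10a and Apol10b. They were taken by symbol, all 6 were found, and all 6 passed the filter on low values that left 13675 genes for testing. They were chosen from values of these same libraries, in particular the low level of Apol10a in the mutants that lack both Rab11 genes. Their values in that group, and counts of calls in any contrast that holds it, are therefore a description from which nothing is read, and p-values of the members are given for the single mutants only.

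RNA was sequenced from whole jejunum of adult mice, in 4 groups of 3 libraries. WT carried the genotype label WT, AKO was Rab11aL/L with VillinCreER+, BKO was Rab11b-/-, and DKO combined Rab11aL/L, Rab11b-/- and VillinCreER+. All groups received tamoxifen at 40 mg/kg and were killed 2 days later, so the controls share the drug. The villin promoter confines the inducible Cre to the epithelium, while Rab11b is missing from every cell of BKO and DKO, and the labels do not say whether WT or BKO mice carried Cre or the floxed allele. Whether each numbered sample is its own mouse is not said, so p-values measure the spread between these samples, which may be technical.

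Apolipoprotein L proteins are intracellular or secreted lipid-binding proteins, some of which form pores in membranes. Human APOL1 lyses trypanosomes in serum and human APOL3 disrupts the membranes of cytosolic bacteria after interferon gamma, while mice have no counterpart of APOL1 and instead a cluster of duplicated genes. Several of the mouse genes respond to interferon, and in mouse intestine Apol9a and Apol9b have been tied to interferon-driven epithelial turnover. Rab11a and Rab11b are small GTPases of recycling endosomes.

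The stretch before the transcription start is shown for each member, because 4 of the 6 hold matches to the interferon-stimulated response element (ISRE, here GAAA repeated after a gap of 2 bases). Sequences are the 250 bases before the most upstream RefSeq start, 5′ to 3′ on the strand of the gene, in GRCm38.p6. Capitals mark matches, on either strand, to the ISRE, to the STAT element GAS (TTCNNNGAA) or to the nuclear receptor repeat DR1 (AGGTCA repeated after 1 base).
Apol9a, chr15:77411081-77411330, minus strand: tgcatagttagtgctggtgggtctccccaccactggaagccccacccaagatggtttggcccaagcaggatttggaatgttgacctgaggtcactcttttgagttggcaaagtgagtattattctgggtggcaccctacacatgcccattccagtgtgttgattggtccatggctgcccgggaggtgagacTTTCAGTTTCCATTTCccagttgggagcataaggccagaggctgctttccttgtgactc
Apol9b, chr15:77728822-77729071, plus strand: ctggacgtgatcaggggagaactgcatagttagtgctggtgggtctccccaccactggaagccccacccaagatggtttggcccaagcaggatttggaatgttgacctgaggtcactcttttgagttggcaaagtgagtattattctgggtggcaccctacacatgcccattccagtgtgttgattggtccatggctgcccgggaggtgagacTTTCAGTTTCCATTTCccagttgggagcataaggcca
Apol10a, chr15:77476797-77477046, plus strand: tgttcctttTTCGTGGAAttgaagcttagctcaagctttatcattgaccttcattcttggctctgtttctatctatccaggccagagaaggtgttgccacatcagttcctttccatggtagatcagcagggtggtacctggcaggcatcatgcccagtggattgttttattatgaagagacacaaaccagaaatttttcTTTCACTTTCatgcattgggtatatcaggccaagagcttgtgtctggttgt
Apol7c, chr15:77533316-77533565, minus strand: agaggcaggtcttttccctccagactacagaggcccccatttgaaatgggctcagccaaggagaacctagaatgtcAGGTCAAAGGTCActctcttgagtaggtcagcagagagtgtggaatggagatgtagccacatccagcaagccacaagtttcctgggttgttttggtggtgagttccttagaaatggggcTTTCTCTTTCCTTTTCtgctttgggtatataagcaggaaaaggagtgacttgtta
Apol7a, chr15:77399111-77399360, minus strand: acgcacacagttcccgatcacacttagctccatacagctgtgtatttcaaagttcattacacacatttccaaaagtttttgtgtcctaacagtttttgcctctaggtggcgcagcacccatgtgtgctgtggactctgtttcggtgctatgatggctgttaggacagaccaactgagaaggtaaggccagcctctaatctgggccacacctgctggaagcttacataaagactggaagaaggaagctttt
Apol10b, chr15:77596126-77596375, minus strand: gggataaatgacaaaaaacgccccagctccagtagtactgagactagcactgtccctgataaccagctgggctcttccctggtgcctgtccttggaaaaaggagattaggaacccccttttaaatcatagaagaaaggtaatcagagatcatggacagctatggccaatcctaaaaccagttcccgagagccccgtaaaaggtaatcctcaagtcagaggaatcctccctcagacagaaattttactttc
Apol9a and Apol9b each held 2 overlapping ISRE matches within 59 bases of the start, and their upstream stretches were identical over 228 aligned bases. Apol7c also held 2 overlapping ISRE matches, starting 55 and 49 bases before its start, and Apol10a held 1, starting 51 bases before. An ISRE match was present in 3.05% of 27025 promoters of this length and in 7 of the 11 Apol promoters in the table. These 7 are not separate sequences. They include Apol9a with Apol9b, and Apol11a and Apol11b, which were 100% identical to each other and 84.7% identical to Apol10a. The GAS matched in Apol10a, 241 bases before its start, and in 7.14% of all promoters. The DR1 repeat matched in Apol7c, 174 bases before its start, and in 0.037% of all promoters (10 of them), and it was added to the search after the sequences had been seen. A looser form, without the first base of the repeat and with the fourth base of the second AGGTCA free, overlaps every DR1 match and was found in Apol7b, Apol7c and Apol7e and in 0.189% of all promoters, and it too was set after the sequences had been seen. All motifs were searched on both strands. The HNF1 palindrome (GTTAAT and ATTAAC around 1 base) and CAAAGTCCA (HNF4) were found in no Apol promoter and in 0.0074% and 0.377% of all promoters.

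Values are in fpm, the unit of the deposited table: fragment counts scaled for sequencing depth and not divided by gene length. Libraries held 19200380 to 29828587 recovered reads, so that 3 reads were worth 0.0939 to 0.169 fpm. Rab11a was at 182 to 188 fpm in WT, 48.9 to 67.2 in AKO, 96.0 to 112 in DKO and 200 to 275 in BKO. Rab11b was at 110 to 120 in WT and 104 to 116 in AKO, against 22.4 to 30.6 in BKO and 21.7 to 24.6 in DKO. On the first principal component, with 58.5% of the variance, BKO replicate 3 lay at 52.8, near the DKO libraries (64.1 to 71.6) and far from the other 8 (-36.7 to -27.2). On the second, with 12.9%, it lay at -63.4, apart from DKO (11.03 to 29.3) and all others. The labelled tissue did not match all of its markers. Lct, the lactase of the upper small intestine, was at 0 to 0.263 fpm in all libraries, Gata4 at 0.407 to 1.21 and Fabp1 at 1.89 to 35.0 outside BKO replicate 3. Fabp6 and Slc10a2, which handle bile acids in the ileum, were at 6109 to 11015 and 614 to 713 in WT, and at 728 to 1097 and 403 to 501 in DKO. Osr2, also listed as distal, was at 127 to 146 in WT and 24.4 to 45.5 in DKO, and Rbp2, a proximal gene, at 143 to 218 and 407 to 464. BKO replicate 3 also differed from WT in genes of this kind, with Fabp1 at 242, Gata4 at 4.59, Apoa4 at 3068 and Rbp2 at 2761. The highest of the other libraries were at 35.0, 1.21, 545 and 464. Fabp6 was at 2914, Slc10a2 at 587 and Osr2 at 68.8 in that library. As in DKO, these lay below every WT library and Rbp2 lay above every WT library. In DKO, Fabp1 was at 5.83 to 9.36, Gata4 at 0.457 to 1.02 and Apoa4 at 161 to 322. These regional genes were chosen after their values had been seen, and their part in the results was not tested. Xist was high in WT replicate 1, AKO replicate 2, BKO replicates 1 and 2 and all DKO libraries (144 to 342), and each other library was at 0 to 0.22.

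Apol10a was the most abundant member, and it was nearly absent from DKO. It was at 512, 449 and 657 fpm in WT replicates 1 to 3, at 536, 234 and 711 in AKO, and at 2.33, 0.757 and 2.38 in DKO, which is 48, 20 and 52 reads. In BKO it was at 363 and 536 in replicates 1 and 2 and at 2.79 in replicate 3. The DKO libraries lay below all WT and AKO libraries, and BKO replicate 3 lay just above the highest DKO library. The WT mean of 539 ± 107 was 296-fold the DKO mean of 1.82 ± 0.922 (SD, n = 3), with a log2 change of -7.62 ± 1.44 (standard error of the limma fit on log2 of the value plus 1). Only 1 of the 13675 genes had a larger negative log2 change in DKO against WT.

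Apol7a was second, at 134, 102 and 102 fpm in WT, 89.1, 132 and 101 in AKO and 13.6, 5.98 and 8.55 in DKO. BKO replicates 1 and 2 were at 122 and 142 and replicate 3 at 4.40, below every DKO library. The WT mean was 12.05-fold the DKO mean (log2 change -3.51 ± 0.97). Apol7c, whose product in mouse dendritic cells is recruited to phagosomes, was at 22.5, 12.8 and 15.6 in WT, 11.9, 19.8 and 16.5 in AKO and 2.67, 2.95 and 1.19 in DKO. It was at 15.4, 8.78 and 1.14 in BKO. The WT mean was 7.48-fold the DKO mean (-2.47 ± 0.60), with no overlap between DKO and the WT or AKO libraries.

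Apol10b, much rarer than Apol10a, was at 5.504, 4.499 and 7.30 fpm in WT, 5.76, 3.50 and 9.47 in AKO, 4.27, 5.01 and 0.294 in BKO and 1.503, 0.719 and 1.10 in DKO. Its lowest value was again BKO replicate 3, with 8 reads. The WT mean was 5.21-fold the DKO mean (-1.68 ± 0.52), and the DKO libraries did not overlap WT or AKO.

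Apol9a and Apol9b, the interferon-stimulated pair that binds phosphatidylethanolamine, were less separated. Apol9a was at 13.5, 17.3 and 9.07 fpm in WT, 8.17, 20.4 and 12.6 in AKO, 13.0, 18.1 and 3.08 in BKO and 12.5, 5.79 and 6.86 in DKO. DKO replicate 1 lay inside the WT and AKO ranges. Apol9b was at 19.3, 20.4 and 9.55 in WT, 8.86, 29.3 and 12.5 in AKO, 16.2, 31.0 and 4.62 in BKO and 10.9, 4.32 and 4.80 in DKO. Its DKO replicate 1 also lay above WT replicate 3 and AKO replicate 1. The WT means were 1.59-fold and 2.46-fold the DKO means for Apol9a and Apol9b, with log2 changes of -0.63 ± 0.53 and -1.22 ± 0.62.

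**Figure D1:**
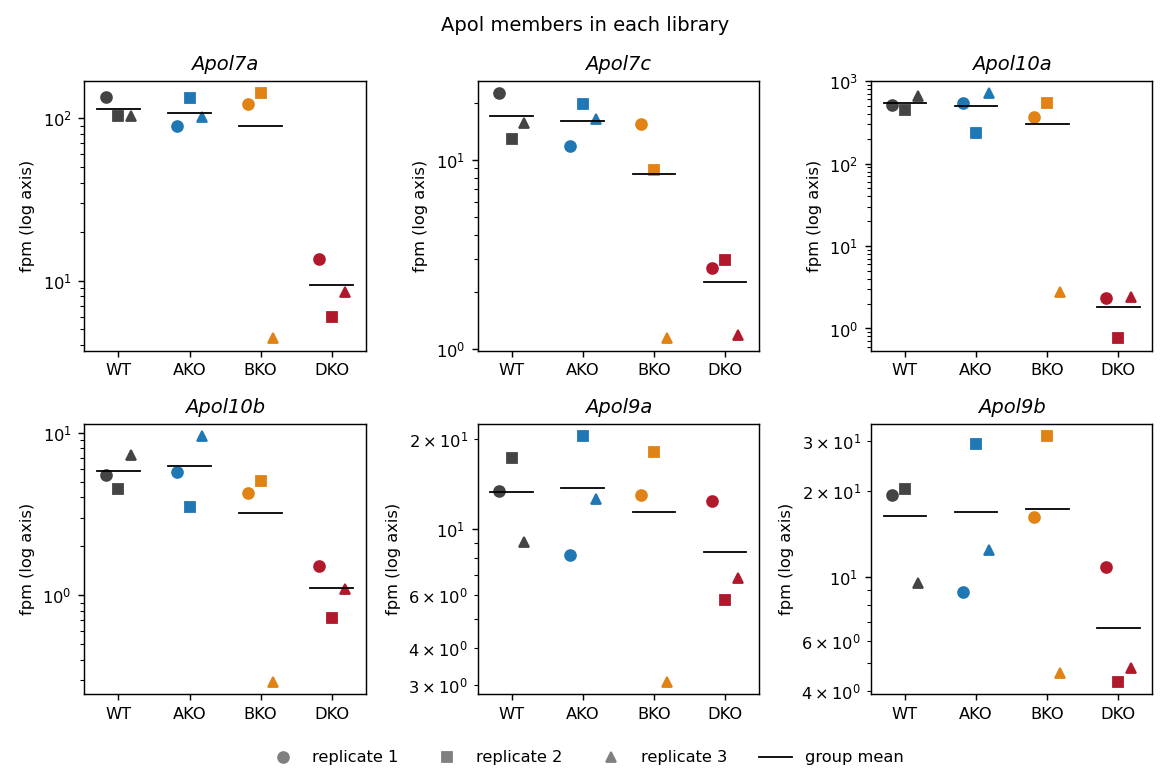
Each panel plots 1 member in fpm on a log axis for WT, AKO, BKO and DKO, with 1 symbol per library and a line at the group mean. BKO replicate 3 (triangle) lies below every WT and AKO library in each panel, at 2.79 for Apol10a and 4.40 for Apol7a, and the DKO points of Apol9a and Apol9b reach into the WT range.

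By the limma fit over all genes, 4 members (Apol7a, Apol7c, Apol10a, Apol10b) of 6 passed an adjusted p of 0.05 as lower in DKO against WT, where 17.2% of all genes were called lower. The same 4 had no overlap between the groups, as had 29.5% of all genes in that direction. Since this contrast drew attention to the family, nothing is read from these counts. The median log2 change over the 6 was -2.07, against -0.0085 over all genes. Without WT replicate 1, WT replicate 3, DKO replicate 2 or DKO replicate 3, 2 members (Apol7c and Apol10a) passed. DKO against AKO shares the DKO libraries and likewise gave 4 lower members (17% of all genes; 2 without AKO replicate 3, DKO replicate 2 or DKO replicate 3), with log2 changes of -7.37 for Apol10a, -3.43 for Apol7a, -2.40 for Apol7c and -1.71 for Apol10b. Fewer expressing cells and less RNA per cell cannot be told apart in RNA of whole tissue.

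Ranked per kilobase of the longest coding transcript (GENCODE M21), the WT order was Apol10a (178 ± 35.1 fpm per kb), Apol7a (47.3 ± 7.75), Apol9b (10.4 ± 3.79), Apol9a (8.67 ± 2.69), Apol7c (8.24 ± 2.41) and Apol10b (2.48 ± 0.611). The levels of Apol9b, Apol9a and Apol7c did not differ beyond their spread. In DKO the order was Apol9a (5.47 ± 2.34), Apol9b (4.23 ± 2.32), Apol7a (3.93 ± 1.63), Apol7c (1.10 ± 0.459), Apol10a (0.60 ± 0.304) and Apol10b (0.476 ± 0.169). Apol9a, Apol9b and Apol7a lay within each other's spread there, as did Apol10a and Apol10b.

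Loss of Rab11a alone gave no member a called change. In AKO against WT none of the 6 was called by limma (0 also by edgeR and by DESeq2), where limma called 0.00731% of all genes. An unadjusted limma p under 0.05 was reached by 0 members and by 136 of 13675 genes. Log2 changes ran from -0.25 ± 1.44 for Apol10a to 0.03 ± 0.52 for Apol10b, each with an adjusted p of 1, and the AKO and WT libraries overlapped for all members, as for all but 8.49% of genes. The standard errors come from 1 spread per gene over all 4 groups, BKO replicate 3 included. AKO replicate 2 had the lowest Apol10a (234 fpm) and Apol10b (3.50) of the AKO libraries and the highest Apol9a (20.4) and Apol9b (29.3).

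Loss of Rab11b alone gave no call either, and its mean changes came mostly from 1 library. In BKO against WT 0 of 6 members were called by limma, edgeR or DESeq2, against 0.0439% of all genes by limma. An unadjusted limma p under 0.05 was reached by 1 member (Apol7c) and by 1466 of 13675 genes. Log2 changes were -2.56 ± 1.44 for Apol10a (adjusted p = 0.549, limma), -1.31 ± 0.97 for Apol7a (adjusted p = 0.655), -1.32 ± 0.60 for Apol7c (adjusted p = 0.466) and -0.95 ± 0.52 for Apol10b (adjusted p = 0.531). Apol9a and Apol9b were at -0.43 ± 0.53 and -0.19 ± 0.62 (adjusted p = 0.812 and 0.944). Without BKO replicate 3 these became -0.27 for Apol10a, 0.23 for Apol7a, -0.47 for Apol7c, -0.25 for Apol10b, 0.24 for Apol9a and 0.50 for Apol9b, none called (adjusted p = 0.595 to 0.831).

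BKO replicate 3 was the lowest BKO library for all 6 members and lay below every WT and AKO library for all 6. The mean of the other BKO libraries was 161-fold its level for Apol10a, 30.02-fold for Apol7a, 15.8-fold for Apol10b, 10.6-fold for Apol7c, 5.11-fold for Apol9b and 5.05-fold for Apol9a. For 4 members it was also below every DKO library. The share of all genes that did the same was not counted. This library stood apart on the principal components over all tested genes, so these counts are a description only. The Rab11a level of BKO replicate 3, 275 fpm, was the highest of all libraries, and its regional genes differed from WT as given above. The markers of T and NK cells summed to 1.28 fpm in it, with Cd3e, Cd3g, Cd8b1 and Gzmb at 0, against 239 and 308 in the other BKO libraries. The summed enterocyte markers, 17581, were near the WT range of 16158 to 18458, and those of all epithelium were at 15885, against 13653 to 15078. The enterocyte list holds the regional genes Apoa4 and Fabp1, at 3068 and 242 in this library and at most 545 and 8.05 in WT. The sum therefore does not measure enterocyte content alone.

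Adding Rab11a loss to Rab11b loss gave different values with and without that library. These contrasts hold the DKO values that drew attention to the family, so their counts are a description only. In DKO against BKO 1 member (Apol10a) was called lower, where 12% of all genes were, and its log2 change was -5.06 ± 1.44. None was called without BKO replicate 1, BKO replicate 2 or any 1 DKO library. Without BKO replicate 3 the count was 5 (all but Apol9a), where 6224 of 13653 genes were called in either direction. The log2 changes of the 5 were -7.35 for Apol10a, -3.74 for Apol7a, -2.0 for Apol7c, -1.71 for Apol9b and -1.43 for Apol10b. In the interaction, DKO minus AKO minus BKO plus WT on the log2 scale, 0 members were called by limma or edgeR and 1 by DESeq2, where limma called 3.96% of all genes. The interaction values were -4.81 ± 2.04 for Apol10a, -2.12 ± 1.37 for Apol7a and -1.08 ± 0.85 for Apol7c. Without BKO replicate 3 they were -7.10, -3.66 and -1.93. In that fit 4 members were called, the fourth being Apol10b at -1.47, where 4181 of 13653 genes were called.

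**Figure D2:**
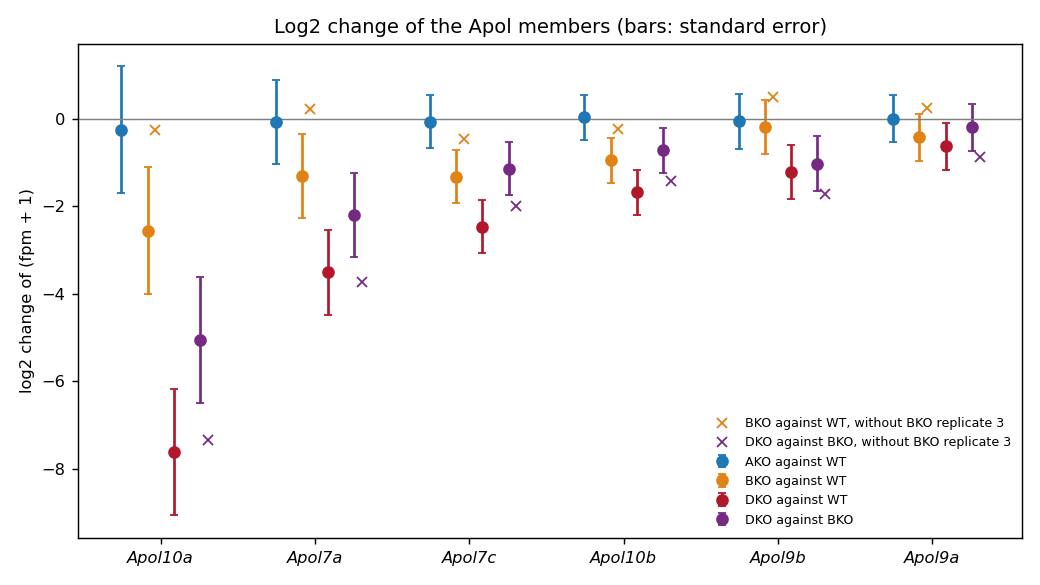
Points are log2 changes of fpm plus 1 for each member with standard errors from the fit, coloured by comparison, and crosses are the same changes without BKO replicate 3. The AKO points lie between -0.25 and 0.03, while leaving out BKO replicate 3 moves Apol10a in BKO against WT from -2.56 to -0.27.

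The members varied together to different degrees. Over the 12 libraries Pearson's r of log2(value + 1) was 0.968 between Apol7a and Apol10a, 0.945 between Apol10a and Apol10b and 0.948 between Apol7a and Apol7c. It was 0.929 between Apol9a and Apol9b, and 0.646 and 0.726 between Apol10a and these. The libraries share their groups and the low BKO replicate 3, so r is a description. Sequence was shared within pairs, and its part in these r was not tested. Of Apol9a, 57.5% of the windows of 50 bases in the longest transcript also occurred in Apol9b, and 41.1% of those of 100 bases. Apol7b and Apol7e shared most of theirs (73.4% of the Apol7b windows of 50 bases). Apol7a, Apol7c, Apol10a and Apol10b shared 14.4%, 12.2%, 8.34% and 6.11% with any other Apol gene, and 3.97%, 16.3%, 8.58% and 0% with genes outside the family. The sources used here do not give the read length or how reads with several matches were handled, so values of Apol9a, Apol9b, Apol7b and Apol7e are uncertain as single genes, and those of Apol7c, Apol7a, Apol10a and Apol10b are so to the extent of these shares.

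**Figure D3:**
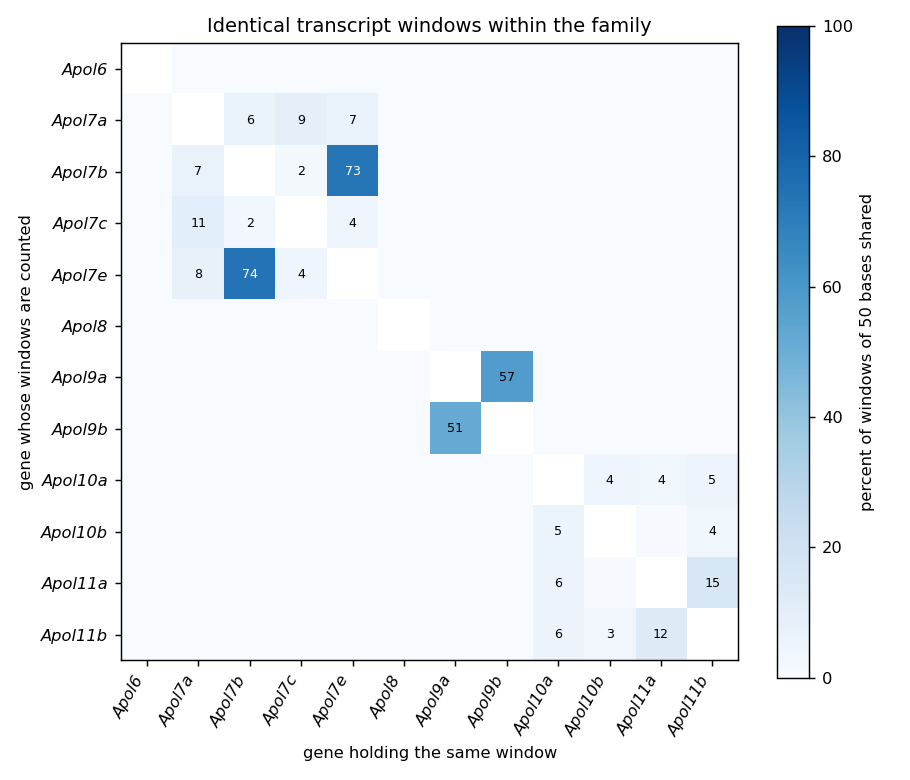
Each cell gives the percentage of the 50-base windows of the row's longest transcript that occur unchanged in a transcript of the column's gene. The pairs Apol9a with Apol9b (57.5% and 51.4%) and Apol7b with Apol7e (73.4% and 74.0%) stand out from the other pairs.

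The genes most like each member over the 12 libraries were ranked by the same r. For Apol10a they included Pigr, the epithelial receptor that carries immunoglobulin A (r = 0.996), and Gpr160 (0.994). For Apol7a they were the class I histocompatibility genes H2-Q1 and H2-Q2 and the butyrophilin-like Btnl6 (0.994, 0.994 and 0.993), and for Apol7c Zfp963, Sec14l2 and Manea (0.984, 0.981 and 0.970). Those of Apol10b included Trim21, an interferon-induced antibody receptor (0.977), and Leprot (0.977). For Apol9a these were Irf7, an interferon-induced regulator (0.945), Sgk1 and Syf2 (0.925 and 0.924), and for Apol9b Tmem80, Smad7 and Rnasek (0.968, 0.944 and 0.938). Such values are common here: 990 of 12240 candidate genes had r above 0.9 with Apol10a and 1004 with Apol7a, against 9 with Apol9a. Pigr went with Apol10a in level too, at 4562 to 6672 fpm in WT, 436 to 554 in DKO and 659 in BKO replicate 3.

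The other 7 Apol rows were rare. Apol7d was at 0 in all libraries, and Apol11a, Apol11b and Apol8 did not exceed 0.208, 0.0757 and 0.346 fpm. Of the 3 that passed the filter, Apol7b was at 4.68 ± 0.538 fpm in WT and 0.412 ± 0.713 in DKO (log2 change -2.11 ± 0.62). Apol7e was at 6.17 ± 0.505 and 1.10 ± 0.792 (-1.83 ± 0.62). Limma called both lower, where 17.2% of all genes were called lower. This contrast drew attention to the family and the 2 genes share most of their sequence, so their calls are a description only. Both lost the call in edgeR and without any 1 WT library, DKO replicate 1 or DKO replicate 2, 1 of them lost it without any 1 AKO library or DKO replicate 3, and both were at 0 in BKO replicate 3. Apol6, at 1.29 ± 0.34 in WT and 0.888 ± 0.32 in DKO, was not called.

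The members lie on chromosome 15, where RefSeq places Apol6 and Rbfox2 on one side of them and Apol8 and Myh9 on the other. Of 9 genes listed as neighbours of the cluster, 8 were tested in DKO against WT. Of these, 2 rose and 1 fell (median log2 change 0.22, against -0.0085 over all genes), where 31.8% of all genes were called. Hmox1, Mcm5 and Rasd2 of this list are not in the RefSeq stretch of chromosome 15 from Mb to Eif3d. The count and median of the list therefore do not describe the neighbourhood alone. Among listed genes inside that stretch, only Rbfox2 was called. The splicing factor gene Rbfox2, the direct neighbour of Apol7a, rose from 35.2 ± 3.77 to 54.5 ± 8.26 fpm (0.61 ± 0.14, limma adjusted p = 0.00979). Eif3d, a translation initiation factor gene, was at 113 ± 9.01 in WT and 159.6 ± 19.8 in DKO (adjusted p = 0.138). In the list but outside that stretch, the haem oxygenase Hmox1 rose from 1.68 ± 0.763 to 15.4 ± 2.63 (2.64 ± 0.29, limma adjusted p = 0.00029). Rasd2, also outside it, fell from 15.4 ± 2.92 to 1.68 ± 0.586 (-2.62 ± 0.59, limma adjusted p = 0.00804).

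**Figure D4:**
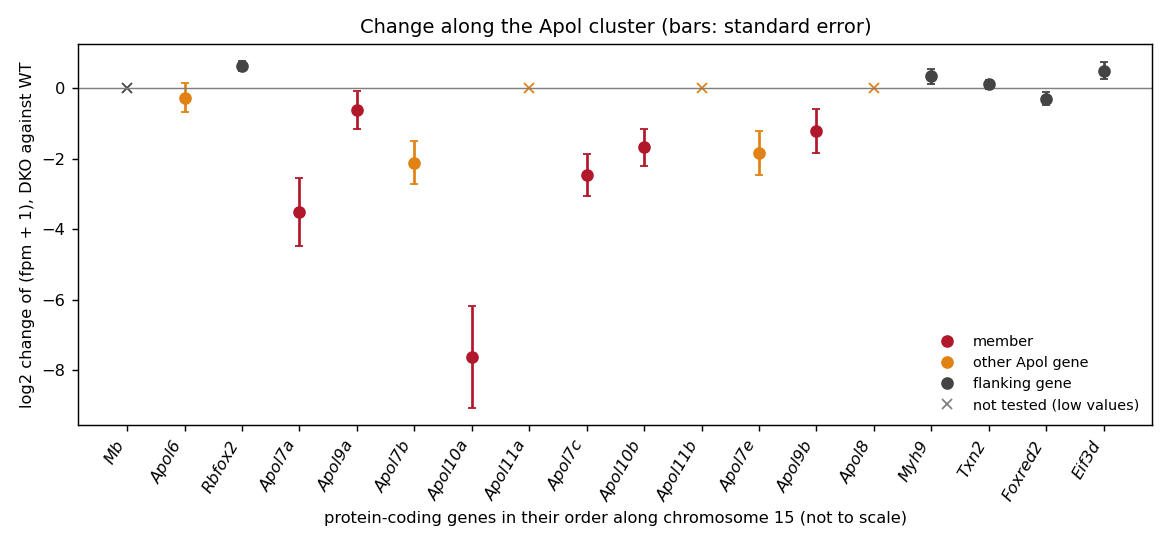
Log2 changes of fpm plus 1 in DKO against WT, with standard errors, for protein-coding genes in their RefSeq order along chromosome 15, not to scale, with crosses for genes too low to test. The members run from -7.62 to -0.63, and Rbfox2 and Eif3d, on either side of the members, lie at 0.61 and 0.49.

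In DKO against WT, of 29 genes listed for interferon gamma, 10 fell and no other was called (median log2 change -1.69). Of all genes, 17.2% were called lower and 31.8% in either direction. The antigen presentation activator Ciita fell from 92.0 ± 11.2 to 3.44 ± 1.02 fpm (-4.41 ± 1.15, limma adjusted p = 0.0156). Irf8 fell from 175 ± 9.11 to 40.3 ± 4.7 (-2.10 ± 0.30, limma adjusted p = 0.00108). The GTPase Gbp6 fell from 48.9 ± 25.3 to 4.73 ± 1.67 (-3.04 ± 0.79, limma adjusted p = 0.015) and Gbp8 from 17.9 ± 9.45 to 1.77 ± 0.459 (limma adjusted p = 0.0156). The count was 19 without BKO replicate 3, in which Ciita was at 0.367, where 6153 of 13653 genes were called in either direction. It was 1 without DKO replicate 2. It was 17 without BKO replicate 2, 2 without WT replicate 1, 5 without WT replicate 2, 4 without WT replicate 3, 6 without AKO replicate 1, 6 without DKO replicate 1 and 5 without DKO replicate 3.

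Of 24 tested type I interferon genes 5 rose and 1 fell (median 0.15), where 31.8% of all genes were called in either direction. The antiviral Oas2 rose from 0.719 ± 0.555 to 7.43 ± 3.09 fpm (2.29 ± 0.35, limma adjusted p = 0.00139), Bst2, which tethers virus particles, from 18.5 ± 4.29 to 47.8 ± 14.1 (1.31 ± 0.24, adjusted p = 0.00307), Oasl1 from 84.3 ± 22.7 to 225 ± 62.8 (1.41 ± 0.34, adjusted p = 0.0116) and Xaf1 from 8.36 ± 1.29 to 20.2 ± 4.83 (adjusted p = 0.0292). The fifth riser was Oas1a (0.99 ± 0.34, adjusted p = 0.0478) and the gene that fell was Mx2 (-0.96 ± 0.32, adjusted p = 0.0407), both named after their values were seen. The count was 11 without BKO replicate 3, where 6153 of 13653 genes were called. It was 3 without WT replicate 1, WT replicate 3 or DKO replicate 2. Irf7, the gene most like Apol9a, was at 150 ± 14.6 and 75.7 ± 33.2 (adjusted p = 0.19).

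Among ligands, receptors and signalling genes, 15 of 21 were tested, and 1 rose and 4 fell (median -0.30), against the same 31.8% of all genes called. Ifng itself, named after its values were seen, was too low to test, at 0 to 1.02 fpm in all libraries. Stat2, which carries interferon signals to the nucleus, fell from 48.6 ± 7.6 to 26.1 ± 5.95 (-0.88 ± 0.24, limma adjusted p = 0.0184) and the receptor chain Ifngr2 from 247 ± 13.5 to 128 ± 19.8 (adjusted p = 0.0379). The kinase Tyk2 fell as well (-0.41 ± 0.13, adjusted p = 0.0386), named after its values were seen. The interferon lambda receptor Ifnlr1 rose from 20.0 ± 1.05 to 35.0 ± 5.7 (0.77 ± 0.16, adjusted p = 0.00505). The count was 1 without WT replicate 1 or DKO replicate 2, 2 without DKO replicate 3, and it fell to 3 without 1 of WT replicate 3, AKO replicate 1 and AKO replicate 3.

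In the single mutants none of these lists held a gene called by limma. Unadjusted limma p under 0.05 was reached in BKO by 7 of 29 interferon gamma, 3 of 24 type I and 1 of 15 signalling genes, and in AKO by 0. Over all 13675 genes it was reached by 1466 in BKO and by 136 in AKO. Medians in BKO against WT were -1.12 for interferon gamma, -0.46 for type I interferon and 0.0087 for the signalling genes. Without BKO replicate 3, an alternative chosen after seeing the data, these were -0.32, 0.13 and 0.15. In AKO they were -0.26, 0.091 and -0.011.

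**Figure D5:**
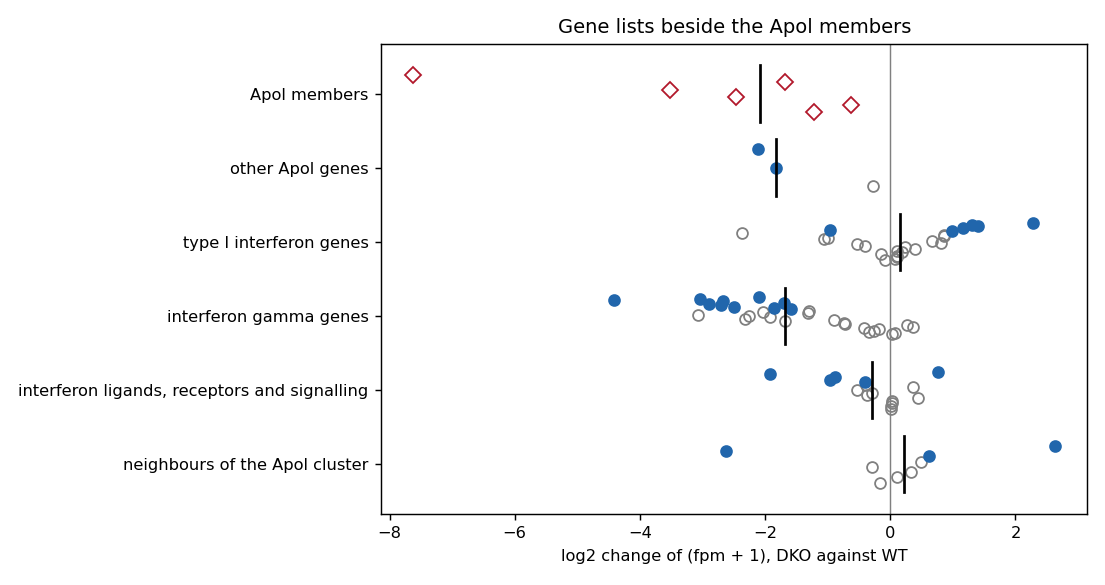
Each symbol is 1 gene at its log2 change of fpm plus 1 in DKO against WT, with filled circles for called genes, open circles for the rest, red diamonds for the members, whose calls are not marked, and a bar at each list's median. The medians are -2.07 for the members, -1.69 for interferon gamma genes and 0.15 for type I interferon genes. The row of neighbours includes Hmox1, Mcm5 and Rasd2, which are not in the RefSeq stretch from Mb to Eif3d.

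Cell markers did not all move alike in DKO and BKO replicate 3. Summed markers of T and NK cells, of B and plasma cells and of crypt stem cells were below the WT range in both. In BKO replicates 1 and 2, those of B and plasma cells (19.9 and 10.3) and of crypt stem cells (165 and 81.1) were below it too. Those of T and NK cells were at 239 and 308 there. In BKO replicate 3 enterocyte markers summed to 17581 fpm, fibroblast markers to 162 and macrophage markers to 66.3, none within the DKO range. The 9 T and NK cell markers in the table summed to 277 to 328 fpm in WT, 171 to 261 in AKO and 21.7 to 60.1 in DKO, with 4 called lower and none at 0 in all DKO libraries. The 10 enterocyte markers summed to 16158 to 18458 in WT and 4613 to 6799 in DKO, with 7 called lower. Of all genes, 17.2% were called lower in DKO against WT. The 4 markers of all epithelium were at 13653 to 15078 in WT and 13476 to 20045 in DKO. The dendritic cell markers were at 16.2 to 19.5 in WT and 15.4 to 18.5 in DKO, where Cd209a was at 0, and at 16.0, 7.66 and 6.02 in BKO replicates 1 to 3. Summed macrophage markers were at 94.2 to 126 in WT and 148 to 175 in DKO, and those of fibroblasts at 144 to 187 and 440 to 704. Those of B and plasma cells were at 48.9 to 447 and 15.9 to 22.1, and those of crypt stem cells at 281 to 383 and 130 to 211. Of these lists, 4 fibroblast and 2 macrophage markers were called higher, and 1 dendritic and 1 crypt stem cell marker lower. In this contrast 31.8% of all genes were called in either direction. Endothelial markers were at 19.2 to 34.7 and 26.2 to 39.8, and smooth muscle markers at 566 to 1075 and 764 to 1406. Their part in the results was not tested. Within WT, where only replicate 1 was Xist-high, Apol10a was at 512 in it and at 449 and 657 in the others, and within AKO the Xist-high replicate 2 was at 234 against 536 and 711.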

How the data were processed

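RNA-seq libraries of 12 mouse samples were analysed as 1 deposited table of 23988 genes, with 0 columns from outside the series. Per the submitters' processing notes, FastQC 0.11.3, Trimmomatic 0.36 and DESeq2 were used, and the build was mm9. The deposited table's name holds the aligner HISAT2, with no version, and the sources used here name no counting tool, annotation or filter. The TruSeq kit, per the labels' protocols, does not mark strand. The authors' deposited values are a signal in fpm, scaled per library: 100% in every library were whole multiples of 1 step within 0.001 reads.

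The reported test was limma 3.58.1 with a trended prior on log2(value + 1), with 1 coefficient per group over 12 libraries, for genes of at least 1 fpm in at least 3 libraries, two-sided, with calls at 0.05 after Benjamini-Hochberg adjustment. The value tested is normalized, so edgeR 4.0.16 and DESeq2 1.42.0 on recovered reads were alternatives. The code was tested on simulated data. Errors of means are standard deviations, n = 3. Alternatives were a pseudocount of 0.1 or 5, no filter or at least 5 fpm, 2 scalings, only the groups compared, a replicate block, and each library left out. All members were named, with up to 4 genes per list by the smallest p in DKO against WT and the 3 genes of highest r per member (group mean of at least 2 fpm, no predicted symbols). Members and lists were chosen with earlier results of these data known. Promoters are RefSeq's (GRCm38.p6), matched by symbol for 6 of 6 members. Their coordinates are not on mm9. Values of some genes that the naming rule picked are not reported here.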

Additional observations from a re-analysis of the deposited data

How the results depend on the processing

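The log2 changes of the 6 members in DKO against WT kept their sign in all 132 alternative values, from -8.27 to -6.31 for Apol10a and from -0.92 to -0.43 for Apol9a. Left-out libraries gave 2 to 4 called members in DKO against WT and DKO against AKO, 0 to 5 in DKO against BKO and 0 to 4 in the interaction. In DKO against BKO the count was 0 with only the groups compared, 2 by edgeR and 3 by DESeq2, and DESeq2 called 1 in the interaction. Over all genes, left-out libraries gave 3 to 9 calls in BKO against WT, 2691 to 6153 in DKO against WT, 2782 to 6203 in DKO against AKO, 1631 to 6224 in DKO against BKO and 94 to 4181 in the interaction. AKO against WT had 2 calls with no filter, 0 with only the groups compared and 3 by DESeq2. BKO against WT had 3 with the stricter filter, 2 with only the groups compared and 252 by DESeq2. DKO against BKO had 699 with only the groups compared, and the interaction 352 by edgeR and 1749 by DESeq2. The replicate block gave 3 calls in BKO against WT, 329 in the interaction and 1 among the other Apol genes. Only 4 of 18 same-numbered pairs had a correlation of deviations above 0.1 (-0.299 to 0.184), so the numbers were not taken to pair the samples. The other Apol genes had 1 call with a pseudocount of 0.1, with no filter, with the stricter filter and by DESeq2, 0 by edgeR and 0 to 2 with a library left out. Interferon gamma genes had 20 with only the groups compared, 17 by DESeq2 and 1 to 19 with a library left out, type I genes 3 to 11 and signalling genes 1 to 7. Signs turned only for uncalled changes. In AKO against WT these were Apol9a (-0.00187 with a pseudocount of 0.1) and Apol9b (0.057 by edgeR, 0.041 by DESeq2), and with a library left out the members ran from -0.24 to 0.051 (Apol7a), -0.24 to 0.14 (Apol7c), -0.31 to 0.30 (Apol9a), -0.53 to 0.28 (Apol9b), -0.58 to 0.21 (Apol10a) and -0.27 to 0.33 (Apol10b). In BKO against WT they were Apol9b (0.098 by edgeR, 0.0726 by DESeq2) and, without BKO replicate 3, Apol7a, Apol9a and Apol9b, whose ranges over left-out libraries were -2.13 to 0.23, -0.88 to 0.24 and -0.76 to 0.50. Apol9a also turned with a library left out in DKO against BKO (-0.87 to 0.25) and in the interaction (-0.87 to 0.24). The causes were not tested. The scaling by median of ratios and by totals turned no sign of a member. Apol10b in DKO rests on few reads (0.719 to 1.503 fpm), and 3 libraries per group limit every comparison.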

Other observations

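Apol11a lies next to Apol10a in the cluster and its upstream stretch was 84.7% identical to that of Apol10a over 249 aligned bases. It held the same ISRE match, starting 50 bases before its start, and a GAS match 241 bases before it. Apol11a was nonetheless at 0 to 0.208 fpm in all libraries, while Apol10a was at 449 to 657 in WT. Apol11b, whose upstream stretch was 100% identical to that of Apol11a over 250 bases, was at 0 to 0.0757. The upstream stretches of Apol7b and Apol7e were 93.1% identical over 245 bases, and both genes were at 0 in BKO replicate 3.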
